A study of Mus musculus with 2 samples.

Results

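Ccl3, Ccl4, Ccl6, Ccl9 and Ccl24 are 5 chemokine genes that were read by name from a single-cell RNA expression table of mouse pancreatic tumours. All 5 were among the 2000 genes of that table. The table held 2 libraries, 1 per genotype: a cKO library of 4577 cells, labelled Ahr fl/fl with Lys M, and a fl/fl library of 5196 cells, labelled Ahr fl/fl, both on C57/BL6. Both groups of mice carried floxed Ahr, the gene of the aryl hydrocarbon receptor, and the cKO mice also carried the LysM-CRE recombinase, which is driven from the lysozyme 2 gene and is active in macrophages, monocytes and neutrophils. All mice had received orthotopic pancreatic grafts of the organoid-derived KPC adenocarcinoma line MT4. Tumours were taken 14 days later, those of 3 mice per genotype were pooled, and live cells were sorted after staining with DAPI. The age of the mice was not in the sources used here. With 1 pooled library per genotype there was no replicate of a genotype, so no difference between genotypes could be tested, and every difference given describes these 2 libraries.

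Chemokines are small secreted proteins that draw leukocytes along a gradient through G protein-coupled receptors. Ccl3 and Ccl4 encode the macrophage inflammatory proteins MIP-1 alpha and MIP-1 beta, which are released by activated myeloid cells and by activated cytotoxic lymphocytes, and Ccl3 acts on Ccr1. Ccl6 and Ccl9 are chemokines of mice, made mainly by myeloid cells, that act on Ccr1. Ccl24 encodes eotaxin-2, which attracts eosinophils through Ccr3 and is made by macrophages under type 2 cytokines. Neither Ccr1 nor Ccr3 was among the 2000 genes, so their levels were not analysed here.

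Ccl9, Ccl6, Ccl3 and Ccl4 lie in that order within 91765 bases of chromosome 11 in GRCm38, and Ccl24 lies apart on chromosome 5. By the GENCODE vM21 annotation, Ccl9 (ENSMUSG00000019122.8) occupies chr11:83572919-83578636 on the minus strand and Ccl6 (ENSMUSG00000018927.3) chr11:83587882-83593087 on the same strand, with 9245 bases between them. Ccl3 (ENSMUSG00000000982.5) occupies chr11:83647844-83649355 on the minus strand, and Ccl4 (ENSMUSG00000018930.3) chr11:83662584-83664683 on the plus strand, 13228 bases away. Ccl24 (ENSMUSG00000004814.10) occupies chr5:135569937-135573049 on the minus strand. All 5 are annotated as protein coding. In RefSeq's table of GRCm38.p6 the span of Ccl4 reaches across Ccl3 on the other strand. The strand setting of the authors' counting is not given in the sources used here.

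Promoter sequences of 300 bases, from 250 bases before the start of the gene through its first 50 bases, were matched by symbol in RefSeq (GRCm38.p6) for 3 of the 5 genes, Ccl3, Ccl6 and Ccl9. Those of Ccl6 and Ccl9 are shown because both genes stood high in the same tumour myeloid cells and because their letters match near the start. They are given 5′ to 3′ on the minus strand, with the bases that were identical in the best local alignment of the pair in capitals.
Ccl6 promoter, chr11:83593038-83593337: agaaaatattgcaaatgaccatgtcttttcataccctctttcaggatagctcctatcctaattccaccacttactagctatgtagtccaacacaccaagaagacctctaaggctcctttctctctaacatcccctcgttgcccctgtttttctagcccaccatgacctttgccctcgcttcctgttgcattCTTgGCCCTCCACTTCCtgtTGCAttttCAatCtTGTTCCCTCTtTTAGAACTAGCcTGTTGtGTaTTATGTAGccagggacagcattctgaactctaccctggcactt
Ccl9 promoter, chr11:83578587-83578886: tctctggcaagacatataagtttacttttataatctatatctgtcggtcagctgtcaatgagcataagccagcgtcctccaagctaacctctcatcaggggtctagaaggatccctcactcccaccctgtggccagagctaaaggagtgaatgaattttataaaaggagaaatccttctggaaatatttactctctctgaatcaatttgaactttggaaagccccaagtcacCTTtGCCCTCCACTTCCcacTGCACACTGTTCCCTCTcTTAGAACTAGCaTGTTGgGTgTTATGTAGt
In that alignment 59 of 74 columns were identical. The matched stretch ran from position -59 to 15 in Ccl6 and from -18 to 49 in Ccl9, counted from 1 at the first base of the gene with no position 0, so the same letters stood at different distances from the annotated starts. The longest run shared without a mismatch was 13 bases, GCCCTCCACTTCC, which 6 of 32851 promoters held on either strand. Ccl3 aligned with Ccl6 over only 12 columns and with Ccl9 over only 11.
The core letters GCGTG, which the aryl hydrocarbon receptor is known to bind, were searched on both strands in the same 300 bases. They were in none of the 3 promoters, against 32.4% of all 32851. The NF-kB letters GGG and CC with any 5 bases between them stood once in Ccl9 at -35 (50.8% of all promoters), TGANTCA of AP-1 once in Ccl9 at -53 (7.81%), and GAGGAA of PU.1 once in Ccl3 at -33 (28.3%), whereas TTCNNNGAA of STAT stood in none of the 3 (8.3%). A match of letters describes this window and shows no binding.

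The deposited values were scores that had been centred and scaled per gene, with an upper limit of 10. Levels of different genes on this scale cannot be ranked against each other as amounts of RNA. The lowest value of a gene among the fl/fl cells is called zero here, and it lay at -0.19 for Ccl3, -0.209 for Ccl4, -0.342 for Ccl6, -0.311 for Ccl9 and -0.114 for Ccl24. Of the fl/fl cells, 13.8% lay above zero for Ccl3, 15.6% for Ccl4, 28% for Ccl6, 18.6% for Ccl9 and 2.54% for Ccl24. The cKO values had no such common lowest value and lay spread around it from cell to cell. There 30.8% of cells lay below the fl/fl zero for Ccl3, 28.7% for Ccl4, 24.9% for Ccl6, 26.4% for Ccl9 and 15.4% for Ccl24. Shares of cells above zero are therefore given for the fl/fl library only, with exact Clopper-Pearson 95% intervals that cover counting error alone. Where no cell was counted, the limit given is not such an interval but the share that 3 cells would make. Read and molecule counts per cell were not in the values, so the depth is unknown, and the number of the 2000 genes above zero stands in for it.

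The libraries also shared barcodes. In all, 656 barcodes occurred in both, 14.3% of the cKO cells and 12.6% of the fl/fl cells. Over the 1995 genes other than the 5 chemokines, a fl/fl cell correlated with the cKO cell of its own barcode at a median of 0.429, against 0.114 with the other shared-barcode cKO cells of its cluster, and 615 of the 656 pairs (93.8%) lay in the same cluster. The chemokines were also correlated within pairs, though no value for other cells of the same cluster was taken for them. Across the 656 pairs, Pearson's r was 0.83 for Ccl3, 0.912 for Ccl4, 0.762 for Ccl6, 0.728 for Ccl9 and 0.822 for Ccl24. Spearman's rank correlation was 0.515, 0.713, 0.63, 0.583 and 0.248 in the same order of genes. Only 28 of the 656 fl/fl cells were above zero for Ccl24. Where the fl/fl cell of a pair was above zero for Ccl4 its cKO partner averaged 0.934, and where it was at zero -0.253. From which library such a cell came cannot be told apart here. The cells with shared barcodes gathered in a cluster led by Vim and Atf3 (336 of 340 cKO cells and 333 of 360 fl/fl cells) and in the Monocyte-like cells (235 of 361 cKO and 240 of 401 fl/fl). They also made up 14 of 18 cKO and 16 of 19 fl/fl cells of a small cluster led by Rsad2 and Ifit3, and 32 of 168 cKO and 33 of 270 fl/fl DC-like cells. No other group held more than 10 in a library. A comparison of genotypes in the Vim/Atf3 cells thus rests mostly on barcodes found in both libraries. In the Monocyte-like cells the fl/fl shares of Ccl3, Ccl4 and Ccl6 are also given without the shared barcodes. So are the differences of Ahr, Ccl6 and Ccl9 between the libraries.

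**Figure D1:**
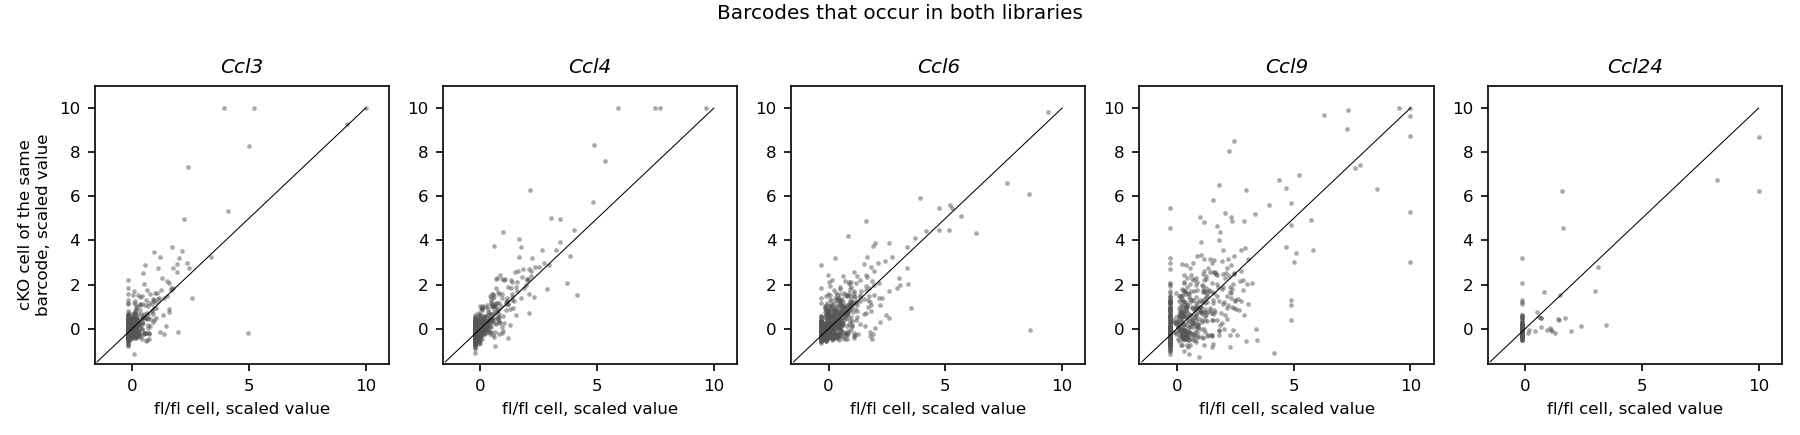
Scaled value of each chemokine in the cKO cell (vertical axis) against the fl/fl cell (horizontal axis) of the same barcode, 1 point for each of 656 barcodes, with the line of equal values. Pearson's r lies between 0.728 for Ccl9 and 0.912 for Ccl4, and Spearman's rank correlation between 0.248 for Ccl24 and 0.713 for Ccl4.

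Cells were clustered without the 5 chemokines, and clusters were called "X-like" where their markers allowed it. This gave 18 groups, of which 14 held at least 50 cells in each library. A low level to read against was taken from the Cr2/Vpreb3-like cells, a B-lineage group of 623 fl/fl cells. There 0.642% of cells were above zero for Ccl3, 0.963% for Ccl4, 1.93% for Ccl6, 1.12% for Ccl9 and 0.321% for Ccl24, with a median of 74 genes above zero per cell. In the Tumor epithelial-like cells, 779 in the fl/fl library with a median of 147 genes, the shares were 3.59%, 4.75%, 6.55%, 3.34% and 0.257% in the same order of genes. Ahr itself was above zero in 18.1% of fl/fl Macrophage-like, 19.2% of Monocyte-like and 0.743% of Neutrophil-like cells. Its mean was 0.244 in cKO and 0.0878 in fl/fl Macrophage-like cells, 0.298 in cKO and 0.25 in fl/fl Monocyte-like cells, and -0.242 in cKO and -0.221 in fl/fl Neutrophil-like cells. The differences of 0.157 and 0.0475 in the Macrophage-like and Monocyte-like cells turned to -0.0692 and -0.0408 with the shift of the cKO values removed in the first of 2 forms described further on, and to -0.117 and -0.105 in the second. Without the shared barcodes the Monocyte-like difference was -0.108, so no direction can be given for Ahr in either group. The part of Ahr that the recombinase removes is not in the sources used here, so these values check nothing about the deletion.

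**Figure D2:**
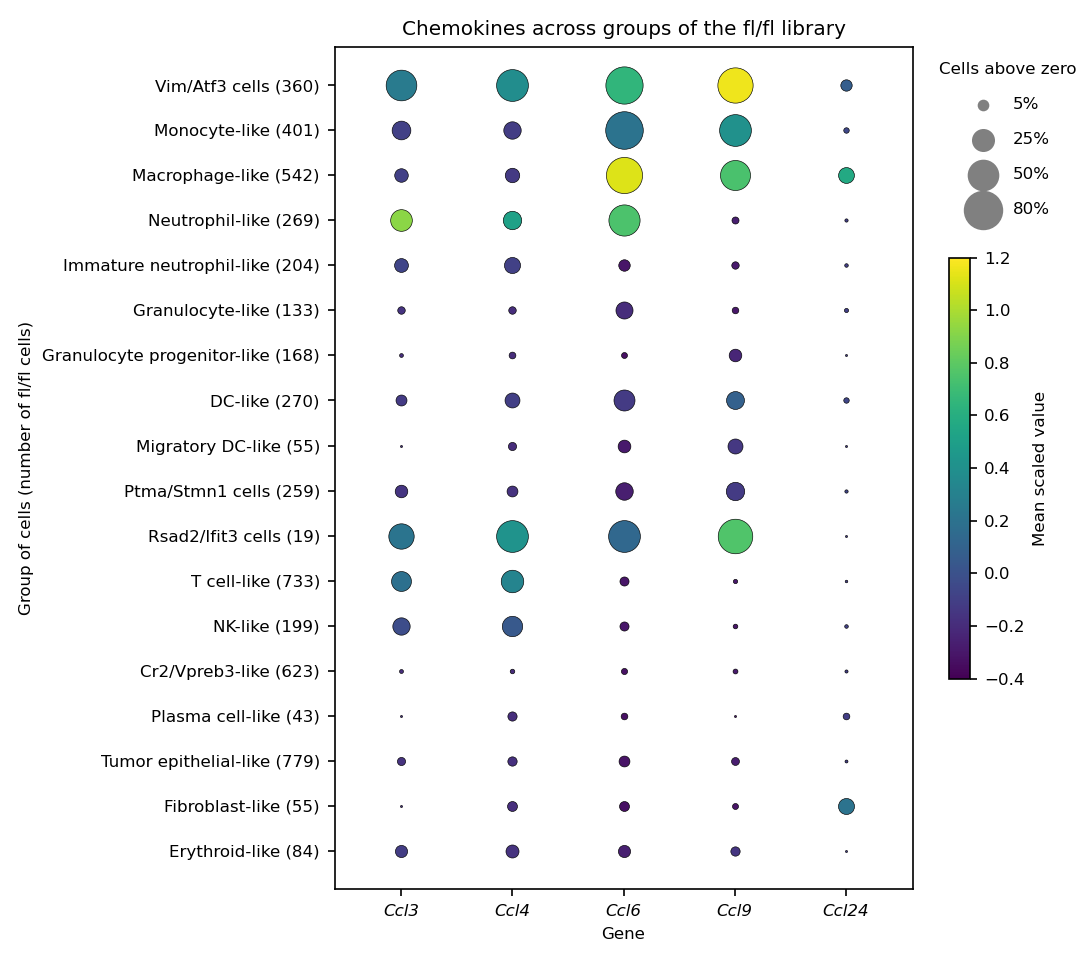
Share of fl/fl cells above zero (area of the dot) and mean scaled value (colour) of each chemokine in 18 groups of cells, with the number of fl/fl cells in brackets. Ccl3 and Ccl4 stand out in the Vim/Atf3, Neutrophil-like, T cell-like and NK-like cells, and by share also in the Monocyte-like cells. Ccl6 and Ccl9 stand out in the Vim/Atf3, Monocyte-like and Macrophage-like cells, and Ccl6 alone in the Neutrophil-like cells. Ccl24 stands out in the Macrophage-like and Fibroblast-like cells. The large dots of the Rsad2/Ifit3 cells for all but Ccl24 rest on 19 cells.

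Ccl3 and Ccl4 were found in myeloid and in cytotoxic lymphoid cells. In the fl/fl library the share of cells above zero was highest in the Vim/Atf3 cells, at 53.9% for Ccl3 (95% interval 48.6 to 59.1) and 58.1% for Ccl4 (52.8 to 63.2), and 92.5% of those cells had a shared barcode. Of the 19 Rsad2/Ifit3 cells, 7 were above zero for Ccl3 and 11 for Ccl4, too few to place. For Ccl3 there followed the Neutrophil-like cells with 26.8% (21.6 to 32.5), the T cell-like cells with 22.5% (19.5 to 25.7), the Monocyte-like cells with 20% (16.1 to 24.2) and the NK-like cells with 17.1% (12.1 to 23). The intervals of each neighbouring pair in this order from the Neutrophil-like cells down overlapped. For Ccl4 the order was T cell-like cells with 28.9% (25.7 to 32.4), NK-like cells with 23.6% (17.9 to 30.1), Neutrophil-like cells with 19.3% (14.8 to 24.6) and Monocyte-like cells with 17.2% (13.6 to 21.3), again with neighbours that overlapped. Every other group lay at or under 10.8% for Ccl3 and 14.7% for Ccl4, in both cases the share of the Immature neutrophil-like cells, and Ccl3 was above zero in none of the 55 Fibroblast-like, 55 Migratory DC-like and 43 Plasma cell-like fl/fl cells. Without the shared barcodes the Monocyte-like shares were 9.32% for Ccl3 and 5.59% for Ccl4, in 161 fl/fl cells.

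By mean level the order for Ccl3 differed, and neutrophils came first. Ccl3 averaged 1.04 ± 2.74 in cKO and 0.922 ± 2.68 in fl/fl Neutrophil-like cells (SD over 221 and 269 cells, which are not replicates). In the Vim/Atf3 cells it averaged 0.339 ± 1.24 in cKO and 0.257 ± 1 in fl/fl, and in the T cell-like cells 0.163 ± 1.15 in cKO and 0.182 ± 1.26 in fl/fl. The median value of the Ccl3 cells above zero was 2.06 in fl/fl Neutrophil-like cells and 0.185 in fl/fl Vim/Atf3 cells. Many Vim/Atf3 cells thus had a low scaled value of Ccl3 and fewer neutrophils had a high one. The median number of genes above zero was 72 in fl/fl Neutrophil-like and 153 in fl/fl Vim/Atf3 cells. The part of this inequality in the contrast was not tested. Ccl4 averaged 0.616 ± 2.11 in cKO and 0.518 ± 2.11 in fl/fl Neutrophil-like cells, 0.513 ± 1.44 and 0.376 ± 1.08 in the Vim/Atf3 cells of cKO and fl/fl, and 0.247 ± 1.43 and 0.323 ± 1.57 in the T cell-like cells of cKO and fl/fl.

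Within the neutrophils both genes stood in one of the clusters of a finer clustering, which divided the Neutrophil-like cells into a cluster led by Ier3, G0s2 and Cxcl2 and one led by Wfdc17, Retnlg and Lrg1. In the Ier3/G0s2 cluster Ccl3 averaged 2.05 in 119 cKO cells and 1.66 in 159 fl/fl cells, and Ccl4 1.26 in cKO and 0.967 in fl/fl. In the Wfdc17/Retnlg cluster, 102 cKO and 110 fl/fl cells, Ccl3 averaged -0.147 in cKO and -0.145 in fl/fl, and Ccl4 -0.132 in cKO and -0.131 in fl/fl. In fl/fl cells 42.1% (34.4 to 50.2) of the Ier3/G0s2 cluster and 4.55% (1.49 to 10.3) of the Wfdc17/Retnlg cluster were above zero for Ccl3, so the intervals were far apart in this library. Ccl6 ran the other way between the clusters, as described further on. The 72 fl/fl Neutrophil-like cells above zero for Ccl3 were set beside the 197 at zero, with a median of 77.5 and 71 genes above zero per cell. The genes with the largest differences were Cxcl2, a neutrophil-attracting chemokine, at a mean of 3.89 in cells with Ccl3 and 1.05 in cells without, Hcar2 at 3.5 and 0.909, and Hilpda, a lipid droplet protein gene induced by hypoxia, at 2.94 and 0.347. Cd274, which encodes PD-L1, averaged 2.54 with Ccl3 and 0.598 without. Lower in the cells with Ccl3 were Csf3r, the receptor of G-CSF, at 1.08 against 3.28, Cxcr2, the receptor of Cxcl2, at 0.69 against 2.82, and Retnlg at 0.728 against 2.41. The 52 cells with Ccl4 differed from the 217 without it in the same sense in these genes, with Hcar2 at 4.14 against 0.995, Cd274 at 3.34 against 0.585 and Cxcr2 at 0.606 against 2.64. These genes helped to form the clusters and were picked for their size, so they describe the cells and test nothing.

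In the T cell-like cells, Ccl3 and Ccl4 stood in 2 of the 4 clusters that carried the name. The cluster led by Cd3g, Cxcr6, Lag3, Pdcd1 and Cd8a, genes of antigen-experienced cytotoxic T cells, held 228 cKO and 230 fl/fl cells. There Ccl3 averaged 0.839 in cKO and 0.754 in fl/fl and was above zero in 47.8% (41.2 to 54.5) of fl/fl cells, and Ccl4 averaged 1.17 in cKO and 1.1 in fl/fl with 55.2% (48.5 to 61.8) of fl/fl cells above zero. A cluster led by Cd8a and the proliferation genes Hmgb2, Stmn1 and Top2a held 82 cKO and 191 fl/fl cells. In it Ccl3 averaged 0.392 in cKO and 0.0996 in fl/fl, with 27.2% of fl/fl cells above zero, and Ccl4 averaged 0.412 in cKO and 0.246 in fl/fl, with 40.8%. In the cluster led by Lef1 and Tcf7, genes of naive T cells, 1.23% of fl/fl cells were above zero for Ccl3 and 1.64% for Ccl4. In the cluster with Ikzf2, Icos and Foxp3, genes of regulatory T cells, the shares were 0% (none of 68 cells, which allows up to 4.41%) for Ccl3 and 4.41% (3 cells) for Ccl4. Of the 165 fl/fl T cell-like cells with Ccl3, none had 3 macrophage or monocyte markers at least 1 above zero, against 1 of the 568 without it. Possible doublets, with markers of 2 cell families, were 5 of the 165 (3.03%) and 2 of the 568 (0.352%). For Ccl4 they were 5 of 212 cells with it and 2 of 521 without. The part of such cells in these levels was not tested.
Within the Cd3g/Cxcr6 cluster the 110 fl/fl cells with Ccl3 and the 120 without had a median of 126.5 and 104.5 genes above zero. Ifng, the gene of interferon gamma, averaged 2.59 in cells with Ccl3 and 0.641 in cells without. Rgs16 averaged 2.48 and 1.33, Pdcd1, which encodes PD-1, 2.66 and 1.71, and Cd8a 2.47 and 1.53, in cells with Ccl3 and without it. Cxcr6 averaged 2.07 with Ccl3 and 2.89 without.

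Ccl3 and Ccl4 often occurred in the same cells. Of the fl/fl cells, 715 were above zero for Ccl3, 811 for Ccl4 and 455 for both, which is 63.6% of the cells with Ccl3 and 56.1% of those with Ccl4. Among fl/fl cells without Ccl3, 7.94% had Ccl4. Over single fl/fl cells Pearson's r between them was 0.718, in the Cd3g/Cxcr6 T cells 0.811 and in the Neutrophil-like cells 0.682. Over the means of the 22 fl/fl clusters with at least 20 cells it was 0.921. These correlations share cells, library and depth and carry no test. Cells with Ccl3 had a median of 144 genes above zero and cells without it 103.

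**Figure D3:**
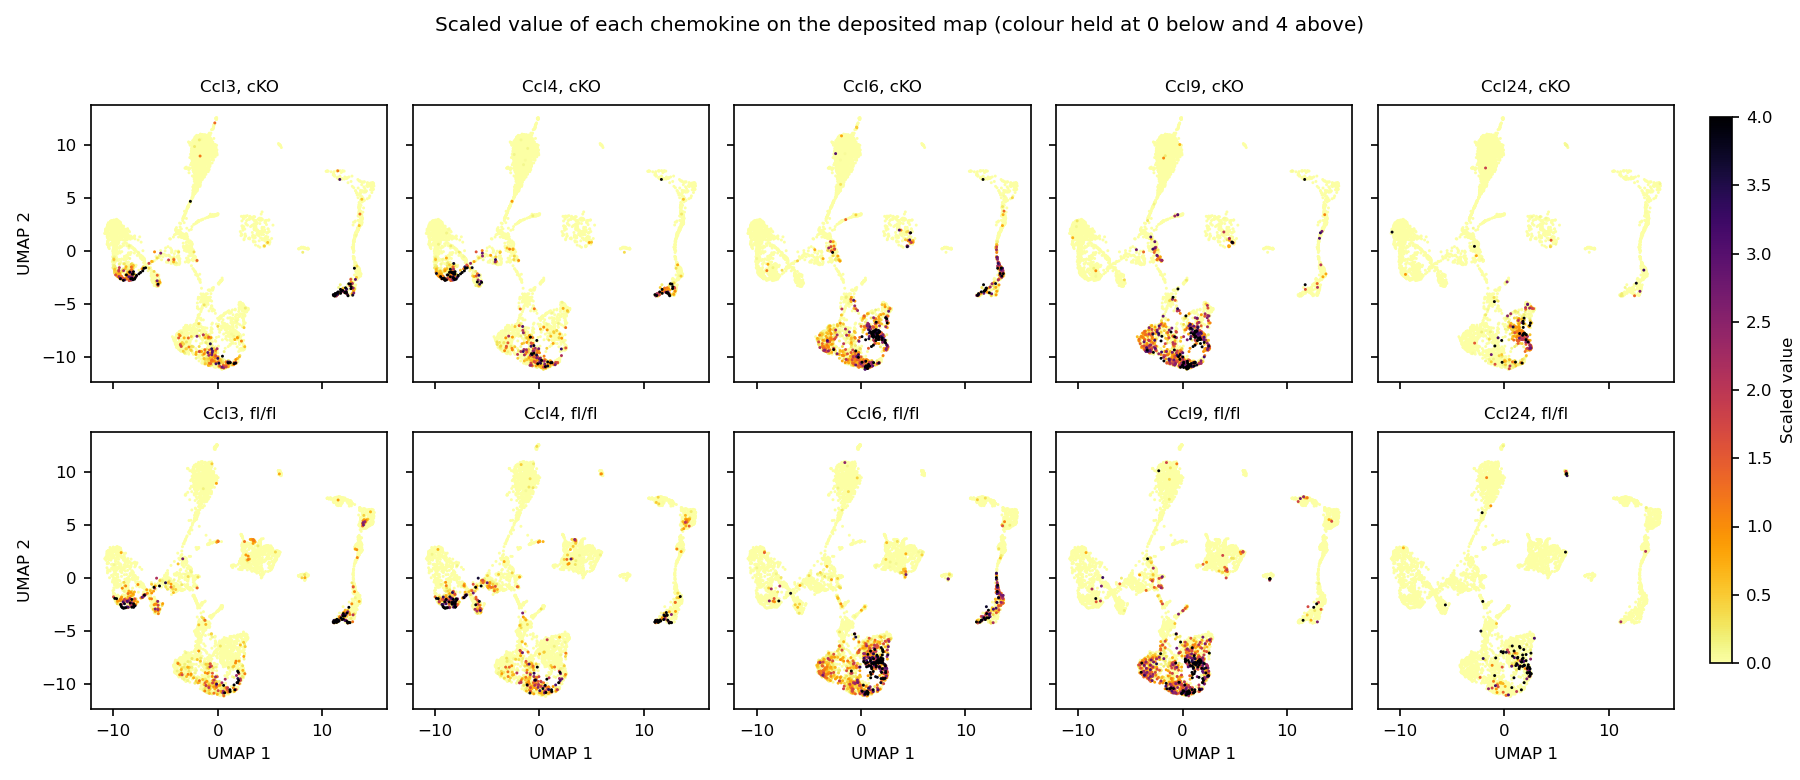
Deposited UMAP map (UMAP axes with no unit) of the cKO cells (top) and the fl/fl cells (bottom), each point a cell coloured by the scaled value of 1 chemokine, held at 0 below and 4 above. Ccl3 and Ccl4 colour the same T cells and neutrophils, Ccl6 and Ccl9 the same macrophages and monocytes, and Ccl24 a part of the macrophages.

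Ccl6 was the most widely found of the 5 and stood in macrophages, monocytes and neutrophils alike. In the fl/fl library it was above zero in 81% (76.9 to 84.8) of Monocyte-like, 79.7% (75.2 to 83.8) of Vim/Atf3, 75.1% (71.2 to 78.7) of Macrophage-like and 55.8% (49.6 to 61.8) of Neutrophil-like cells. The first 3 intervals overlapped neighbour by neighbour and the neutrophils lay below them. Of the 19 Rsad2/Ifit3 cells 11 had it. DC-like cells followed with 25.2% (20.1 to 30.8) and Ptma/Stmn1 cells with 17.4% (13 to 22.5), and T cell-like and NK-like cells stood at 4.5% and 4.52%. By height the order was different, since at least 1 above zero were 41.3% of Macrophage-like, 34.9% of Neutrophil-like, 29.4% of Vim/Atf3 and 18.7% of Monocyte-like fl/fl cells. The mean followed the height, at 1.14 ± 1.9 in cKO and 1.11 ± 2.05 in fl/fl Macrophage-like cells, 0.853 ± 1.9 and 0.749 ± 1.69 in the Neutrophil-like cells of cKO and fl/fl, 0.711 ± 1.31 and 0.644 ± 1.36 in the Vim/Atf3 cells, and 0.204 ± 0.663 and 0.21 ± 0.538 in the Monocyte-like cells. Without the shared barcodes, 80.7% of the 161 fl/fl Monocyte-like cells were still above zero.

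Neutrophils differed along maturation and between their clusters in Ccl6. It was above zero in 1.79% of fl/fl Granulocyte progenitor-like cells (led by Elane and Prtn3), 7.35% of Immature neutrophil-like cells (led by Camp and Ngp), 16.5% of Granulocyte-like cells (led by Ifitm6 and Ltf) and 55.8% of Neutrophil-like cells. The intervals were 0.37 to 5.13, 4.17 to 11.8, 10.7 to 24 and 49.6 to 61.8. Within the Neutrophil-like cells, the Wfdc17/Retnlg cluster had 80% (71.3 to 87) of fl/fl cells above zero and a mean of 0.996 in cKO and 1.04 in fl/fl. The Ier3/G0s2 cluster, where Ccl3 and Ccl4 were high, had 39% (31.4 to 47) of fl/fl cells above zero for Ccl6 and a mean of 0.731 in cKO and 0.545 in fl/fl. The 150 fl/fl Neutrophil-like cells with Ccl6 had higher Wfdc17 (3.37 against 1.08 in the 119 cells without), Retnlg (2.75 against 0.97) and S100a11 (2.26 against 0.758), and lower Ier3 (1.53 against 2.43) and Egr1 (1.44 against 2.38).

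Ccl9 shared the monocytes and macrophages with Ccl6 and was nearly missing from the neutrophils. It was above zero in 71.4% (66.4 to 76) of Vim/Atf3, 57.9% (52.9 to 62.7) of Monocyte-like and 51.7% (47.4 to 55.9) of Macrophage-like fl/fl cells, of which the last pair of intervals overlapped, and in 13 of the 19 Rsad2/Ifit3 cells. These shares are over all cells, and 333 of the 360 Vim/Atf3 and 240 of the 401 Monocyte-like cells had a shared barcode. Ptma/Stmn1 cells followed with 19.3%, DC-like cells with 18.1% and Migratory DC-like cells with 12.7%. Of the Neutrophil-like cells it was 2.6% (1.05 to 5.29), close to the 1.12% of the Cr2/Vpreb3-like cells. The mean of Ccl9 was 1.17 ± 2.05 in cKO and 1.16 ± 1.96 in fl/fl Vim/Atf3 cells, 0.796 ± 1.53 in cKO and 0.741 ± 1.73 in fl/fl Macrophage-like cells, 0.422 ± 1.08 in cKO and 0.401 ± 0.947 in fl/fl Monocyte-like cells, and -0.229 ± 0.451 in cKO and -0.263 ± 0.419 in fl/fl Neutrophil-like cells. Granulocyte progenitor-like cells held it in 8.93% (5.08 to 14.3) of fl/fl cells, against 2.94% (1.09 to 6.29) of the Immature neutrophil-like cells. Of the 965 fl/fl cells with Ccl9, 798 also had Ccl6, which is 82.7% of the cells with Ccl9 and 54.9% of the 1454 cells with Ccl6. Pearson's r between both was 0.557 over fl/fl cells, 0.6 within the Macrophage-like cells, 0.22 within the Monocyte-like cells and 0.763 over the 22 cluster means. Fl/fl Macrophage-like cells with Ccl6 had a median of 203 genes above zero and those without it 73. Of those without Ccl6, 12.6% had Ccl9. The part of the unequal number of genes per cell in this overlap was not tested.

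Macrophages divided by state for Ccl6, Ccl9 and Ccl24. The finer clustering gave a Macrophage-like cluster led by Fn1 and Arg1, genes of matrix and of arginine breakdown, with 224 cKO and 402 fl/fl cells, and one led by Apoe, C1qc and Ms4a7 with 100 cKO and 81 fl/fl cells. In the Fn1/Arg1 cluster Ccl6 averaged 1.59 in cKO and 1.29 in fl/fl, Ccl9 1.07 in cKO and 0.796 in fl/fl, and Ccl24 0.99 in cKO and 0.588 in fl/fl. In the Apoe/C1qc cluster Ccl6 averaged 0.227 in cKO and 0.072 in fl/fl, Ccl9 -0.0492 in cKO and 0.119 in fl/fl, and Ccl24 0.222 in cKO and -0.0057 in fl/fl. All 3 chemokines were thus higher in the Fn1/Arg1 cluster in both libraries. Another cluster, left without a name and led by Ero1l, Fth1, Gpnmb and Nos2, held 64 cKO and 89 fl/fl cells. There Ccl24 averaged 0.898 in cKO and 0.957 in fl/fl, Ccl9 1.22 in cKO and 1.3 in fl/fl, and Ccl6 0.671 in cKO and 1.09 in fl/fl, and 32.6% of its fl/fl cells also had Ccl3.

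**Figure D4:**
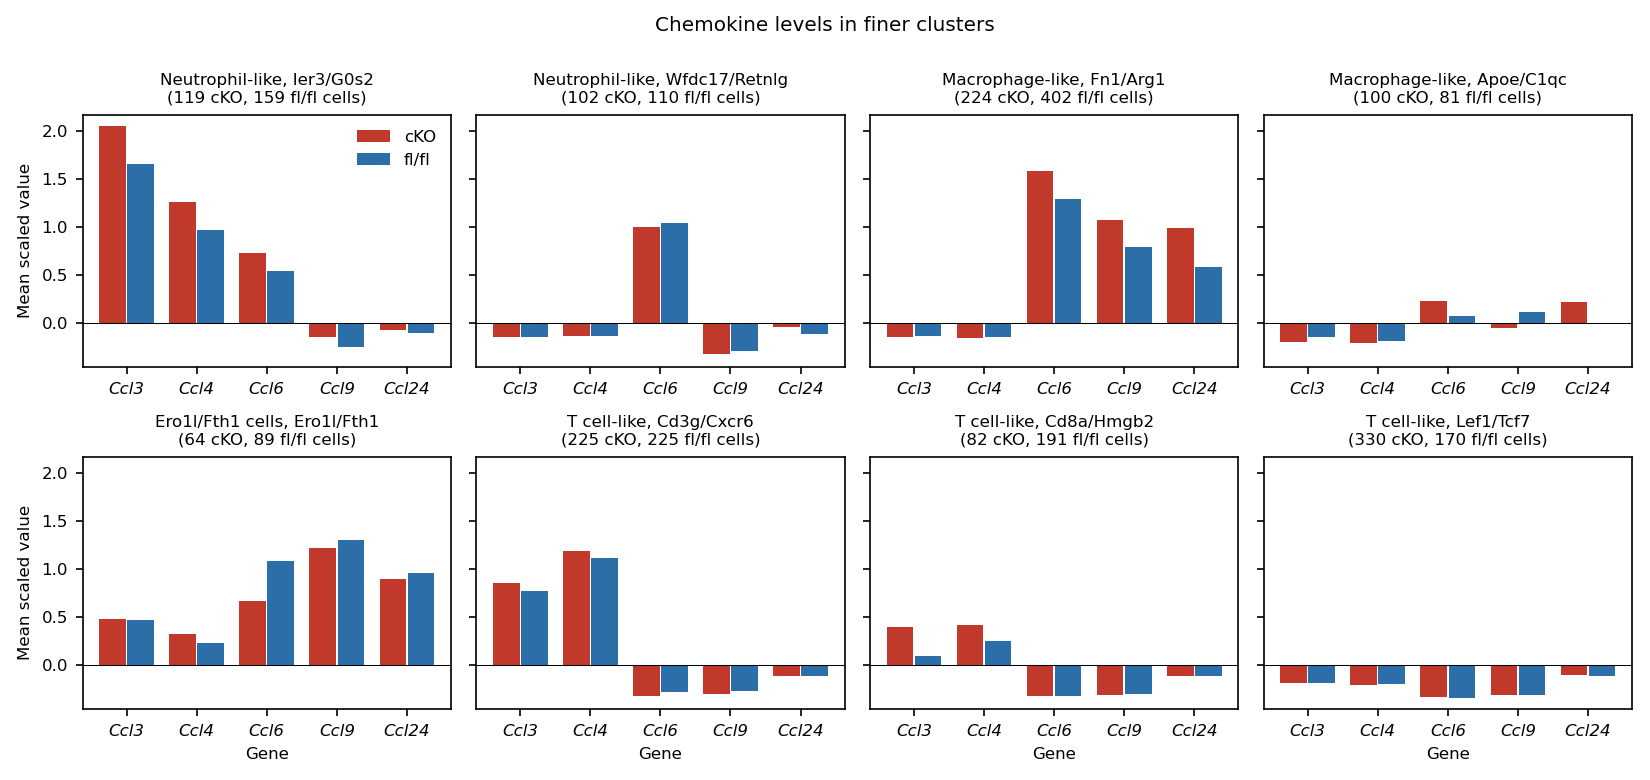
Mean scaled value of the 5 chemokines in 8 clusters of the finer clustering, with cKO bars left of fl/fl bars and the numbers of cells in the titles. Ccl3 reaches 2.05 in cKO and 1.66 in fl/fl in the Ier3/G0s2 neutrophils and lies below 0 in the Wfdc17/Retnlg neutrophils, while Ccl6, Ccl9 and Ccl24 are higher in the Fn1/Arg1 than in the Apoe/C1qc macrophages.

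Ccl24 was rare and the most restricted of the 5 by where its cells lay. Of the 132 fl/fl cells above zero, 77 were Macrophage-like (58.3%), 26 were Vim/Atf3 cells (19.7%) and 8 were Fibroblast-like. It was above zero in 14.2% (11.4 to 17.4) of Macrophage-like, 7.22% (4.77 to 10.4) of Vim/Atf3, 1.5% (0.551 to 3.23) of Monocyte-like and 0.372% (0.00941 to 2.05) of Neutrophil-like fl/fl cells. The median value of the Macrophage-like cells above zero was 3.83, a score scaled per gene that gives no amount of RNA. The mean was 0.802 ± 1.84 in cKO and 0.567 ± 2.18 in fl/fl Macrophage-like cells. The 77 fl/fl Macrophage-like cells with Ccl24 had a median of 265 genes above zero and the 465 without it 130. Fn1 averaged 2.82 in cells with Ccl24 and 1.09 in cells without, Arg1 3.13 and 1.46, and Slc7a2, an arginine transporter, 2.01 and 0.552. The complement gene C1qa averaged 1.01 with Ccl24 and 1.98 without, Apoe 0.502 and 1.47, and H2-Ab1, an MHC class II gene, 0.373 and 1.16. Ccl6 and Ccl9 were above zero in 85.7% and 67.5% of the Macrophage-like cells with Ccl24. The part of the unequal number of genes per cell in these values was not tested.
Ccl24 also appeared outside the leukocytes. Of the 55 fl/fl Fibroblast-like cells, led by Sparc and Col1a1, 8 were above zero, or 14.5% (6.5 to 26.7), with a highest value of 6.01. None of these 8 cells and none of the other 47 had 3 macrophage or monocyte markers at least 1 above zero. Counted at any value above zero, 3 macrophage markers were found in 8 and 3 monocyte markers in 16 of the 55 cells. Of the 8 cells with Ccl24, 1 was a possible doublet, as were 3 of the other 47, and their median was 465.5 genes above zero, against 206 in the other 47. The part of these in the level of Ccl24 was not tested. The cKO library held only 9 Fibroblast-like cells, at a mean of 0.0414, and was not compared.

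Small groups with unlooked-for members were set beside markers of other cells. A Tumor epithelial-like cluster led by Lgals4 and Agr2, 32 cKO and 53 fl/fl cells, averaged 0.0415 for Ccl6 in cKO and -0.0728 in fl/fl, and 0.307 for Ccl9 in cKO and -0.0803 in fl/fl. Of its fl/fl cells 32.1% (19.9 to 46.3) were above zero for Ccl6. Among those 17 cells 8 had 3 macrophage or monocyte markers at least 1 above zero and 4 were possible doublets, against 1 and 0 of the 36 cells without Ccl6. Of the 204 fl/fl Immature neutrophil-like cells 22 had Ccl3 and 30 had Ccl4. Possible doublets made up 8 of the 22 (36.4%) and 11 of the 30 (36.7%), against 7.14% of the cells without Ccl3 and 5.75% of those without Ccl4. The part of such cells in these levels was not tested.

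Genes whose fl/fl cluster means followed each chemokine were ranked by Pearson's r over the same 22 clusters. Nearest to Ccl3 were Csf1 (0.78), 2010005H15Rik (0.765), Cxcl3 (0.736), Tnf (0.732) and Hcar2 (0.729). Nearest to Ccl4 were Slc17a6 (0.798), Ccl1 (0.785), Krt17 (0.78), Pdcd1 (0.775) and Ifng (0.769). Hcar2 was also a leading gene of the Ier3/G0s2 neutrophils, and Pdcd1 of the Cd3g/Cxcr6 T cells. Ccl6 was followed by Pla2g7 (0.941), Fcgr4 (0.938), Clec4n (0.928), Ly6i (0.922) and Tgm2 (0.883). Among the genes that followed Ccl9 were Pid1 (0.971), Tgfbi (0.971), Fcgr1 (0.964) and Msr1 (0.954), of which Msr1 encodes a scavenger receptor. Ccl24 was followed by Cox4i2 (0.978), Dab2 (0.932), Fn1 (0.926), Trem2 (0.924) and Slc7a2 (0.921). By Spearman's rank correlation 3 of the 5 nearest genes of Ccl3 came among the first 5 again, 1 for Ccl4, 1 for Ccl6, and 0 for Ccl9 and for Ccl24, so the lists depend on the measure.

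Between the libraries most differences of the chemokines over whole groups were under 0.1. Over the 5 genes and 14 groups with at least 50 cells per library, 70 differences of cKO minus fl/fl means were taken and counted from 0.1 on the scaled values. They ran from -0.107 to 0.235 with a median of -0.00612, and 65 of the 70 were under 0.1 in size, 4 were higher in cKO and 1 was lower. Over all 2000 genes in the same 14 groups, 9.51% of differences were higher by that size and 7.03% lower. Because the lowest cKO values varied from cell to cell, a shift called so in what follows, each difference was also estimated with a local floor of the cKO cells subtracted, in 2 forms. The estimate could not be checked against counts. It was given only where fewer than 40% of the fl/fl cells were above zero in each main cluster of the group. The finer clusters were not held to this limit, and the Ier3/G0s2 neutrophils exceeded it for Ccl3. The 70 differences include groups with few fl/fl cells above zero, such as the Cr2/Vpreb3-like cells. Their count thus says little about the cells where the genes were found. On the deposited values some finer clusters differed by more. Examples are 0.402 for Ccl24 in the Fn1/Arg1 macrophages and 0.392 for Ccl3 in the Ier3/G0s2 neutrophils. Others went the other way, such as -0.178 for Ccl9 in a cluster led by H2-DMb1 and Cd209a.

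In Macrophage-like cells, 1 of the 5 chemokines, Ccl24, reached 0.1, where 8% of all 2000 genes were higher in cKO by that size and 3.55% lower, and 17.4% of the 684 genes found in at least 5% of fl/fl cells were higher. Ccl24 averaged 0.802 in cKO and 0.567 in fl/fl, a difference of 0.235. Its sign turned once the shift was estimated and removed, to -0.0976 in the first form and -0.209 in the second, so no direction can be given. By the first form 42 of 355 cKO cells (11.8%, 8.66 to 15.7) and 59 of 542 fl/fl cells (10.9%, 8.39 to 13.8) lay at least 1 above their floor. Here and in what follows, that floor was the local estimate for a cKO cell and the zero of the gene for a fl/fl cell. The shares of the libraries are thus not the same measure, and their intervals leave out the error of the local floor. Over all groups, 8 cKO and 22 fl/fl cells lay at the upper limit of 10 for Ccl24. Ccl6 differed by 0.025, Ccl9 by 0.0558, Ccl4 by -0.0312 and Ccl3 by -0.0684. With the finer clusters weighted as in the fl/fl library, which gives both libraries the same mix of Fn1/Arg1 and Apoe/C1qc cells, the differences were 0.189 for Ccl6, 0.183 for Ccl9 and 0.348 for Ccl24. The 8 measured macrophage markers averaged 1.63 in cKO and 1.31 in fl/fl Macrophage-like cells. The part of that difference in these values was not tested.

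In Neutrophil-like cells, 2 of the 5, Ccl3 and Ccl6, were higher in cKO by at least 0.1, where 5.75% of all genes were higher and 4.7% lower, and 24.7% of the 308 genes found in at least 5% of fl/fl cells were higher. Ccl3 averaged 1.04 in cKO and 0.922 in fl/fl, a difference of 0.115, which was 0.00772 and -0.0416 with the shift removed in the first and second form. How much of the Ccl3 signal of the Ier3/G0s2 cells the local floor took away was not tested. Ccl4 averaged 0.616 in cKO and 0.518 in fl/fl, a difference of 0.0983, which was -0.0653 and -0.109 with the shift removed. Ccl6 averaged 0.853 in cKO and 0.749 in fl/fl, a difference of 0.104, and was too frequent for the estimate. It fell short of 0.1 without possible doublets (0.0936) and with the finer clusters weighted as in the fl/fl library (0.0904), a weighting that gave 0.231 for Ccl3 and 0.171 for Ccl4. At least 1 above the floor for Ccl3 were 50 of 221 cKO cells (22.6%, 17.3 to 28.7) and 53 of 269 fl/fl cells (19.7%, 15.1 to 25), and for Ccl4 26 cKO cells (11.8%, 7.83 to 16.8) and 38 fl/fl cells (14.1%, 10.2 to 18.9). In the Ier3/G0s2 cluster alone the difference was 0.392 for Ccl3 and 0.291 for Ccl4 on the deposited values. The 10 neutrophil markers averaged 1.87 in cKO and 1.84 in fl/fl Neutrophil-like cells.

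In Monocyte-like cells, where 3.4% of all genes were higher and 1.95% lower, 0 of the 5 reached 0.1 with all cells kept. Ccl6 averaged 0.204 in cKO and 0.21 in fl/fl, and Ccl9 0.422 in cKO and 0.401 in fl/fl. Among the 126 cKO and 161 fl/fl cells left without the shared barcodes, Ccl6 averaged 0.0801 in cKO and 0.219 in fl/fl and Ccl9 0.294 in cKO and 0.426 in fl/fl. These are differences of -0.139 and -0.132, so 2 of the 5 were lower in cKO by over 0.1 once those cells were left out, as were 5.05% of all genes. Neither could be checked by the estimate, since both were above zero in over 40% of fl/fl cells.

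**Figure D5:**
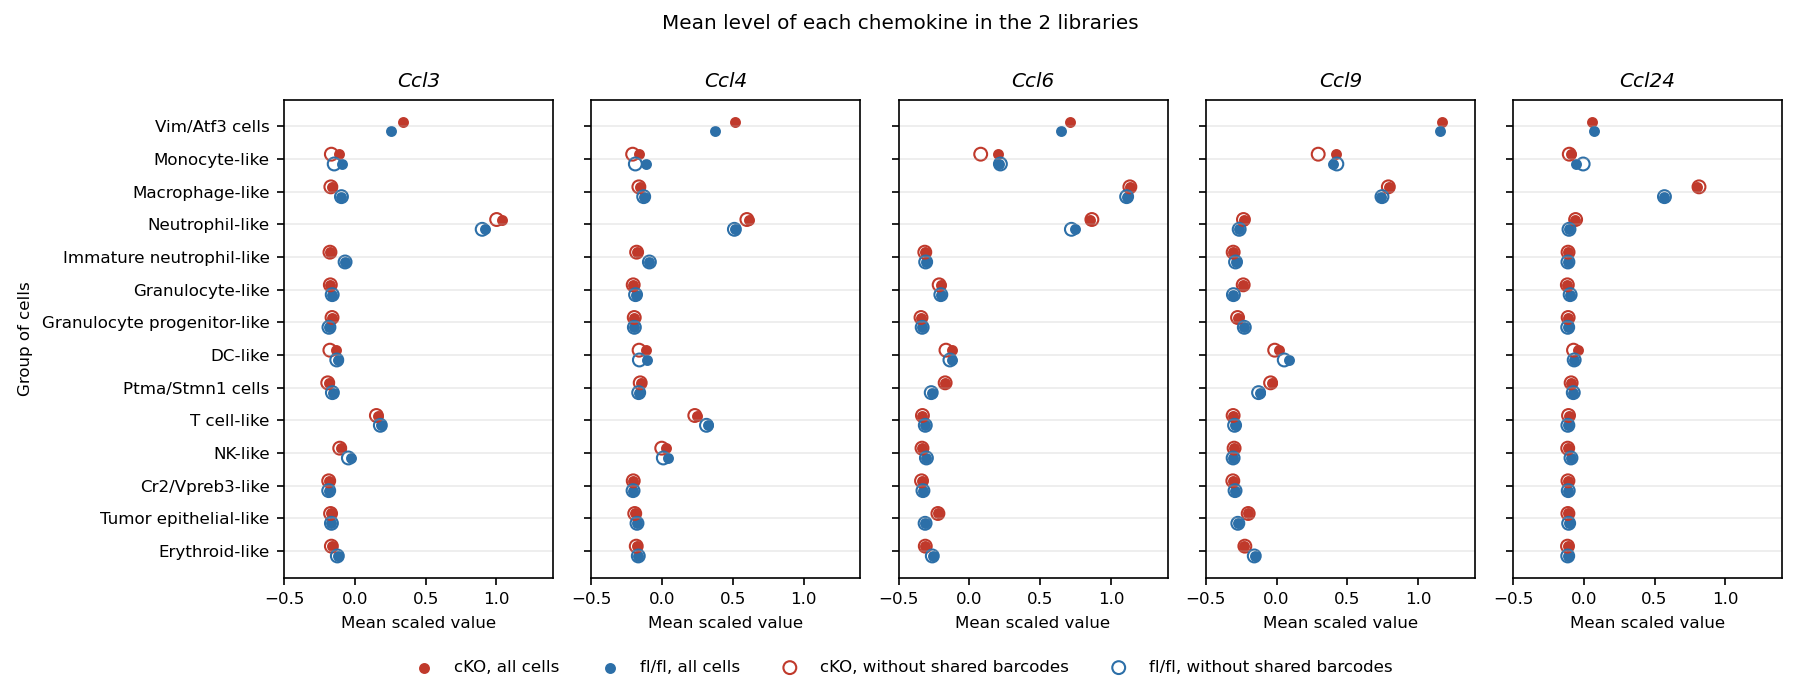
Mean scaled value of each chemokine in 14 groups of cells, with cKO in red above fl/fl in blue, all cells as filled points and cells without shared barcodes as open circles (none for the Vim/Atf3 cells, of which too few were left). Most pairs lie close together, and the Monocyte-like open circles of Ccl6 (0.0801 in cKO and 0.219 in fl/fl) lie farther apart than the filled ones.

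In the other groups, the Vim/Atf3 cells had 1 difference of at least 0.1, Ccl4 at 0.513 in cKO and 0.376 in fl/fl (3.1% of all genes higher by that size and 3.7% lower), between cells that mostly shared their barcodes. The Immature neutrophil-like cells had 1, Ccl3 at -0.176 in cKO and -0.0692 in fl/fl, a difference of -0.107 (10.2% of all genes higher and 5.2% lower), which was -0.0996 and -0.102 with the shift removed and -0.0545 without possible doublets. No cKO cell of 77 and 9 of 204 fl/fl cells (4.41%, 2.04 to 8.21) lay at least 1 above their floor, and 0 of 77 allows a share of up to 3.9% by the limit of 3 cells. Ccl4 stood at -0.18 in cKO and -0.0899 in fl/fl Immature neutrophil-like cells. Its difference of -0.0902 was -0.101 and -0.104 with the shift removed (6.81% of the 1895 genes with an estimate were lower by 0.1 in the first form) and -0.0594 without possible doublets. The proliferating Ptma/Stmn1 cells had Ccl6 at -0.17 in cKO and -0.267 in fl/fl, and Ccl9 at -0.0337 in cKO and -0.12 in fl/fl, where 12.3% of all genes were higher by 0.1 and 12.6% lower. These differences of 0.0966 and 0.0861 were 0.165 and 0.122 with the shift removed in the first form and 0.141 and 0.105 in the second (in the first form 15.6% of the 1916 genes with an estimate were higher by 0.1). At least 1 above the floor for Ccl6 were 16 of 194 cKO Ptma/Stmn1 cells (8.25%, 4.79 to 13) and 4 of 259 fl/fl cells (1.54%, 0.422 to 3.91), and the 9 measured monocyte markers of that group averaged 0.238 in cKO and 0.17 in fl/fl. In the Tumor epithelial-like cells Ccl6 stood at -0.223 in cKO and -0.313 in fl/fl and Ccl9 at -0.202 in cKO and -0.274 in fl/fl, where 28.5% of all genes were higher in cKO by 0.1 and 12.6% lower. With the shift removed these differences of 0.0895 and 0.0712 were 0.282 and 0.173 in the first form (27.7% of the 1872 genes with an estimate higher) and 0.134 and 0.125 in the second. On the deposited values that of Ccl9 was -0.00465 without possible doublets, which were 21 of 181 cKO and 48 of 779 fl/fl cells, and that of Ccl6 was 0.0768. With the finer clusters weighted as in the fl/fl library they were 0.228 for Ccl6 and 0.0252 for Ccl9. At least 1 above the floor for Ccl6 were 19 of 181 cKO cells (10.5%, 6.44 to 15.9) and 3 of 779 fl/fl cells (0.385%, 0.0795 to 1.12), and for Ccl9 11 cKO cells (6.08%, 3.07 to 10.6) and 14 fl/fl cells (1.8%, 0.986 to 3). The largest finer cluster of that group, led by Krt8 and Clu, held 133 cKO and 464 fl/fl cells. There Ccl6 stood lower in cKO, at -0.359 against -0.331 in fl/fl. A cluster led by Lmna and Clu held 16 cKO and 262 fl/fl cells, and the Lgals4/Agr2 cluster 32 cKO and 53 fl/fl cells. The 11 measured tumour epithelial markers averaged 1.55 in cKO and 0.995 in fl/fl Tumor epithelial-like cells. The part of the markers and of this mix of clusters in these values was not tested. In the T cell-like cells, where 2.7% of all genes were higher and 9.15% lower, Ccl3 differed by -0.0195 and Ccl4 by -0.0761. With clusters weighted as in the fl/fl library these were 0.108 and 0.0703. The Lef1/Tcf7 cluster held 409 of 819 cKO and 244 of 733 fl/fl T cell-like cells.

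The other measured chemokines were counted from 0.1 in the same way. Of 20 CC chemokines listed, 13 were measured, the 5 included. In the Macrophage-like cells 2 of the 13 were higher in cKO by 0.1 and 1 was lower, with a median of -0.0123, against 160 higher and 71 lower of all 2000 genes with a median near 0. Ccl8 stood at 0.709 in cKO and 0.535 in fl/fl. Ccl12, a ligand of Ccr2, stood at 0.105 in cKO and 0.329 in fl/fl, though its difference of -0.225 was 0.0465 with the shift removed. Among 12 measured CXC, XC and CX3C chemokines 2 were higher there and 0 lower, Pf4 at 0.911 in cKO and 0.583 in fl/fl (a difference of 0.328, or 0.0786 with the shift removed) and Cxcl16 at 1.33 in cKO and 1.16 in fl/fl. Cxcl16 was too frequent for the estimate. Of 8 measured genes of alternative activation, the programme to which Ccl24 is known to belong, 6 were higher in cKO Macrophage-like cells and 1 was lower, with a median of 0.139, and with the shift removed 4 of the 6 that could be estimated were higher and 0 lower, against 11.3% higher and 1.5% lower of the 1872 genes with an estimate. They included Mrc1, the mannose receptor and itself a macrophage marker, at 0.906 in cKO and 0.528 in fl/fl, and Arg1 at 2.02 in cKO and 1.7 in fl/fl. The difference of Mrc1 was 0.288 with the shift removed, and Arg1 was too frequent for the estimate. This list was not weighted by finer cluster. The Apoe/C1qc cluster held 100 cKO and 81 fl/fl cells, and the Fn1/Arg1 cluster 224 cKO and 402 fl/fl cells. The part of this mix in these values was not tested.
In the Neutrophil-like cells 2 of the 13 CC chemokines were higher and 0 lower, with a median of 0.00454, and these were Ccl3 and Ccl6. Of 14 measured NF-kB induced and early response genes, the kind to which Ccl3 and Ccl4 are known to belong, 5 were higher and 3 lower there, with a median of 0.0385, and with the shift removed 0 were higher and 3 lower of the 8 estimated. Over all genes 115 were higher and 94 lower of 2000 on the deposited values, and 10.1% were higher and 1.79% lower of the 1951 with an estimate. Egr1 stood at 2.38 in cKO and 1.86 in fl/fl and Gadd45b at 1.11 in cKO and 1.43 in fl/fl. Of the 12 CXC, XC and CX3C chemokines 2 were higher in the Neutrophil-like cells and 0 lower. Cxcl3, a ligand of Cxcr2, stood at 1.14 in cKO and 0.796 in fl/fl, a difference of 0.342 that was -0.0624 with the shift removed. The other, Cxcl10, differed by 0.127, or 0.0746 with the shift removed. In the Monocyte-like cells 0 of the 13 CC chemokines reached 0.1 with all cells, and 0 were higher and 3 lower without the shared barcodes. Of the 12 CXC, XC and CX3C chemokines 2 were higher there and 0 lower with all cells, where 3.4% of all genes were higher. These were Cxcl10, by 0.12, and Cxcl9, by 0.106, and without the shared barcodes 0 of the 12 reached 0.1. Of 10 measured other chemokine receptors, 1 was higher and 1 lower in the Macrophage-like cells, Cx3cr1 at 0.68 in cKO and 0.319 in fl/fl (a difference of 0.361, or 0.00512 with the shift removed) and Ccr2 at 0.422 in cKO and 0.735 in fl/fl. Ccr2 was too frequent for the estimate. Levels of Ccr1 and Ccr3 could not be set beside these receptors.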

How the data were processed

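Single-cell RNA from pooled whole tumours was measured on the 10X Chromium, with 1 library of 3 mice per genotype. The deposited values are scores per gene and cell that the authors had centred, scaled and limited at 10, as the values show, and a UMAP score per cell was deposited with them. The submitters' processing notes name Cell Ranger 3.0.0, Seurat 3.1.4 and the builds mm10 and GRCm38. The alignment settings, the filters on cells, the choice of 2000 genes, any doublet removal and any integration of the libraries are not given in the sources used here. Counts were not in the values, so count tests could not be used, and with 1 library per genotype no test was made. Columns that match no library numbered 0.

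The 5 chemokines were left out before clustering: 30 principal components, 20 nearest neighbours, shared-neighbour weights and Leiden clustering at resolution 1 (numpy 2.4.6, scipy 1.17.1, igraph 0.11.9, Python 3.11.15). A finer clustering used resolution 2. A cluster was named where a marker list with at least 3 measured genes averaged at least 0.5 more than in all other cells. The best list of another cell family had to stay under 0.5 of that. Of the 10 leading genes, at least as many had to come from the list as from any other. Lists within a family, such as macrophage and monocyte, did not block each other. The highest gave its name, or that of the family where another of the family reached 0.5 of it. Cells with 3 markers of each of 2 cell families at least 1 above zero were marked as possible doublets (100 cKO and 188 fl/fl) and kept.

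The shift of the cKO values was estimated in 2 forms. The first took the 0.3 quantile over the 30 nearest cKO cells of the cluster, and the second a quantile of 0.5 times the share of fl/fl cells at zero over 50 neighbours. Either was run on fl/fl cells with simulated shifts, and could not be checked against read counts. Promoters were aligned with Biopython 1.88 (match 2, mismatch -3, gap -5 and -2).

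The rule for named genes took the 5 chemokines, the 5 genes with the highest correlation to each, their measured receptors, Ahr and, from every gene list, at most the 4 genes that differed most. Some items that this rule takes are not reported here. Genes named for cells with and without a chemokine were chosen after their values were seen. The members, the gene and marker lists and the rules were chosen with earlier results of these data known. Alternatives were 15 components, resolution 2, members kept in or all chemokines left out of the clustering, doublets left out, values above 5 set to 5, and 1 above zero as the height. Leaving out shared barcodes and weighting the finer clusters were added after the data were seen.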

Additional observations from a re-analysis of the deposited data

How the results depend on the processing

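Of the alternatives tried for the main levels and differences, 171 moved a difference by less than 0.1 or left a share within its interval, 13 moved it further and 3 turned a difference of at least 0.1. Smaller differences that changed sign are not among those 3. All 20 values recomputed at resolution 2, with 15 components, with the members kept in the clustering, with every chemokine left out of it or without possible doublets stayed, as did 15 with values above 5 set to 5. Counting fl/fl cells from 1 above zero gave 11.9% for Ccl3 and 16.7% for Ccl4 in the Vim/Atf3 cells, 18.7% for Ccl6 in the Monocyte-like cells and 46.7% for Ccl9 in the Vim/Atf3 cells. With the finer clusters weighted as in fl/fl, cKO minus fl/fl was 0.189 for Ccl6, 0.183 for Ccl9 and 0.348 for Ccl24 in the Macrophage-like cells and 0.231 for Ccl3 in the Neutrophil-like cells. With the shift of the cKO values removed, Ccl24 in the Macrophage-like cells turned to -0.0976 in the first form and -0.209 in the second, Ccl3 in the Neutrophil-like cells gave 0.00772 and turned to -0.0416, and Ccl4 there, at 0.0983 on the deposited values, also turned, to -0.0653 and -0.109. Without shared barcodes, Ccl6 gave -0.139 and Ccl9 turned to -0.132 (0.0203 with all cells) in the Monocyte-like cells. The causes were not tested. Of the 159 other values 150 stayed and 9 moved. No paired analysis was possible because the genotypes share only replicate number 1. Leaving out a replicate was not possible with 1 library per genotype. The number of reads per cell, unknown here, limits every share of cells above zero, and shares at or near those of the Cr2/Vpreb3-like cells are not above background.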
